A study of Mus musculus with 10 samples.

Results

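The TNF receptor superfamily genes described here are a set of 10 chosen for B cells: Cd40, Cd27, Fas, Tnfrsf13b, Tnfrsf13c, Tnfrsf17, Tnfrsf1a, Tnfrsf1b, Tnfrsf8 and Tnfrsf9. They were listed by name, with earlier results of these data known, from a table of 46316 genes. All 10 were among the 17718 genes with enough counts to be tested. Poly(A) RNA was sequenced from sorted spleen cells of C57BL/6 mice in 3 groups. The pBIC10 group (3 libraries, 2 from females and 1 from a male) carried p53F/F, Blimp1F/F, IKK2castopF/stopF, Cg1Cre/+ and IL-10F/F, and gave B220+GFP+ cells of an IL-10-deficient lymphoma that models the activated B cell-like form of diffuse large B cell lymphoma. The pBIC group (3 libraries, all from females) carried the same alleles except IL-10F/F and gave B220+GFP+ lymphoma cells. The YC group (4 libraries, 3 from females and 1 from a male) carried YFPstopF/+ and Cg1Cre/+ and, by the series description, gave B220+YFP+ germinal centre B cells taken 10 days after the second of a pair of sheep red blood cell immunisations spaced 20 days apart. For YC, several sample fields carry the lymphoma terms instead (GFP+ cells, moribund mice); the design text of the series was taken as right. All 3 groups share the Cre of the Cg1 locus, which is switched on in germinal centre B cells, so the lymphomas and the controls also differ in reporter, in immunisation and in being a tumour. Ages are not given in the labels.

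Receptors of this family are single-pass proteins that are brought together by trimeric ligands and recruit TRAF adaptors, death-domain adaptors or both. In B cells, the receptors for BAFF and APRIL carry survival signals, CD40 carries help from T cells, and Fas can trigger cell death. Many of these receptors signal through the classical or the alternative NF-kB pathway, and the active IKK2 allele of both lymphoma groups acts in the classical one.

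The libraries held 17.1, 17.1 and 18.6 M counts in pBIC10, 17.8, 19.1 and 18.6 M in pBIC, and 13.5, 12.6, 14.3 and 13.8 M in YC. Levels are in counts per M (CPM), and 0 counts in a library set an upper limit of 0.154 to 0.246 CPM (3 counts, counting error only). The pBIC10 libraries are original to the series, whereas those of pBIC and YC came from an earlier one and were analysed again, so series of origin and genotype cannot be told apart wherever pBIC10 is compared. In all 3 pBIC10 libraries Ighv7-3 took 67.4 to 70.5% of the heavy chain variable segment counts. In all 3 pBIC libraries Ighv8-11 took 51.6 to 59.1%, and in the 4 YC libraries 4 different segments led, with 3.73 to 10.9%. Whether the tumours of a group descend from 1 clone was not tested, and p-values measure only the spread between these libraries. The summed level of 9 B cell markers was 2843 to 4744 CPM in pBIC10, 2241 to 3822 CPM in pBIC and 8408 to 10704 CPM in YC, and 8 germinal centre genes summed to 54.8 to 84.6, 37.3 to 52.6 and 988 to 1636 CPM in the same order of groups. The summed level of 18 T cell markers was 219.9 to 246 CPM in pBIC10, 97.3 to 142 CPM in pBIC and 556 to 923 CPM in YC, and Cd3e, which defines T cells, had 0.176 to 0.708, 1.18 to 1.92 and 7.92 to 27.6 CPM. The T cell sum was higher in pBIC10 than in pBIC. In pBIC10 against pBIC, however, the log2 fold change was below 0 for 15 of the 18 markers and above 0 for 3. Its median was -2.08, beside -0.01 over all tested genes. Of the targeted genes, Trp53 averaged 44.6 ± 7.01 CPM in pBIC10, 31.6 ± 18.9 CPM in pBIC and 191 ± 10.2 CPM in YC. Il10 averaged 3.16 ± 1.44 CPM in pBIC10 and 11.7 ± 6.76 CPM in pBIC. Neither value tells how much of the floxed parts was lost, since the counts cover whole genes.

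Per kilobase of exon, the receptors for BAFF led in every group, but their order differed. In pBIC10, Tnfrsf13b stood first with 59.6 ± 16.8 CPM per kb (SD, n = 3), above Tnfrsf13c with 27.0 ± 15.8, Cd40 with 17.3 ± 4.34, Tnfrsf1b with 5.11 ± 3.56, Fas with 3.37 ± 1.53 and Tnfrsf8 with 2.64 ± 2.14. In pBIC, Tnfrsf13c with 81.8 ± 11.01 CPM per kb and Tnfrsf13b with 79.8 ± 13.9 were level within their spread, and so were Cd40 with 24.01 ± 2.62 and Fas with 20.8 ± 3.89. In YC, Tnfrsf13c stood first with 172 ± 17.0 CPM per kb (SD, n = 4), then Tnfrsf13b with 56.4 ± 6.95, Fas with 42.4 ± 4.87 and Cd40 with 27.1 ± 4.68, and none of these 4 overlapped a neighbour in the order. Tnfrsf13b overlapped no other member in pBIC10 libraries, whereas Tnfrsf13c and Cd40 overlapped each other there, as did Tnfrsf1b, Fas and Tnfrsf8. At the low end, Cd27, Tnfrsf17, Tnfrsf1a and Tnfrsf9 lay between 0.132 and 1.64 CPM per kb in every lymphoma library, from 2 to 66 counts a library. They overlapped one another in pBIC10, and Tnfrsf1a lay above the other 3 in pBIC. Lengths are merged exons of the reference annotation, so a gene read mainly as a short isoform has a higher level per kb than given here.

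Of the 10 receptors, 3 were called in pBIC10 against pBIC (adjusted p under 0.05, edgeR quasi-likelihood test), where 30.7% of all tested genes were called: Fas and Tnfrsf13c were lower, as were 15.1% of all genes, and Tnfrsf8 was higher, as were 15.6%. In pBIC against YC, 5 were called, all lower (Cd27, Fas, Tnfrsf13c, Tnfrsf17 and Tnfrsf8), where 54.1% of all genes were called, 27.7% lower and 26.4% higher. In pBIC10 against YC, 7 were called, all lower (Cd40, Cd27, Fas, Tnfrsf13c, Tnfrsf1a, Tnfrsf8 and Tnfrsf9), where 51.7% of all genes were called, 26.9% lower and 24.8% higher. Libraries of the paired groups did not overlap for 4, 6 and 7 of the 10 receptors in the 3 comparisons, beside 41.8%, 54.2% and 61% of all tested genes. The share of receptors called was thus near the background in the first comparison and in the second, and all calls against YC pointed down. Without pBIC10 replicate 3 the counts called were 4 (2 higher and 2 lower), 7 (1 higher and 6 lower) and 5 (all lower) in the 3 comparisons, and in pBIC against YC 3 were called lower without pBIC replicate 1 or without pBIC replicate 2. The median log2 fold change of the 10 receptors was -0.60, -1.05 and -1.91 in the 3 comparisons, beside -0.01, 0.02 and 0.01 over all tested genes. The comparisons share libraries, so these values are not independent of one another. In bulk RNA, fewer cells of a type and less RNA per cell cannot be told apart.

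**Figure D1:**
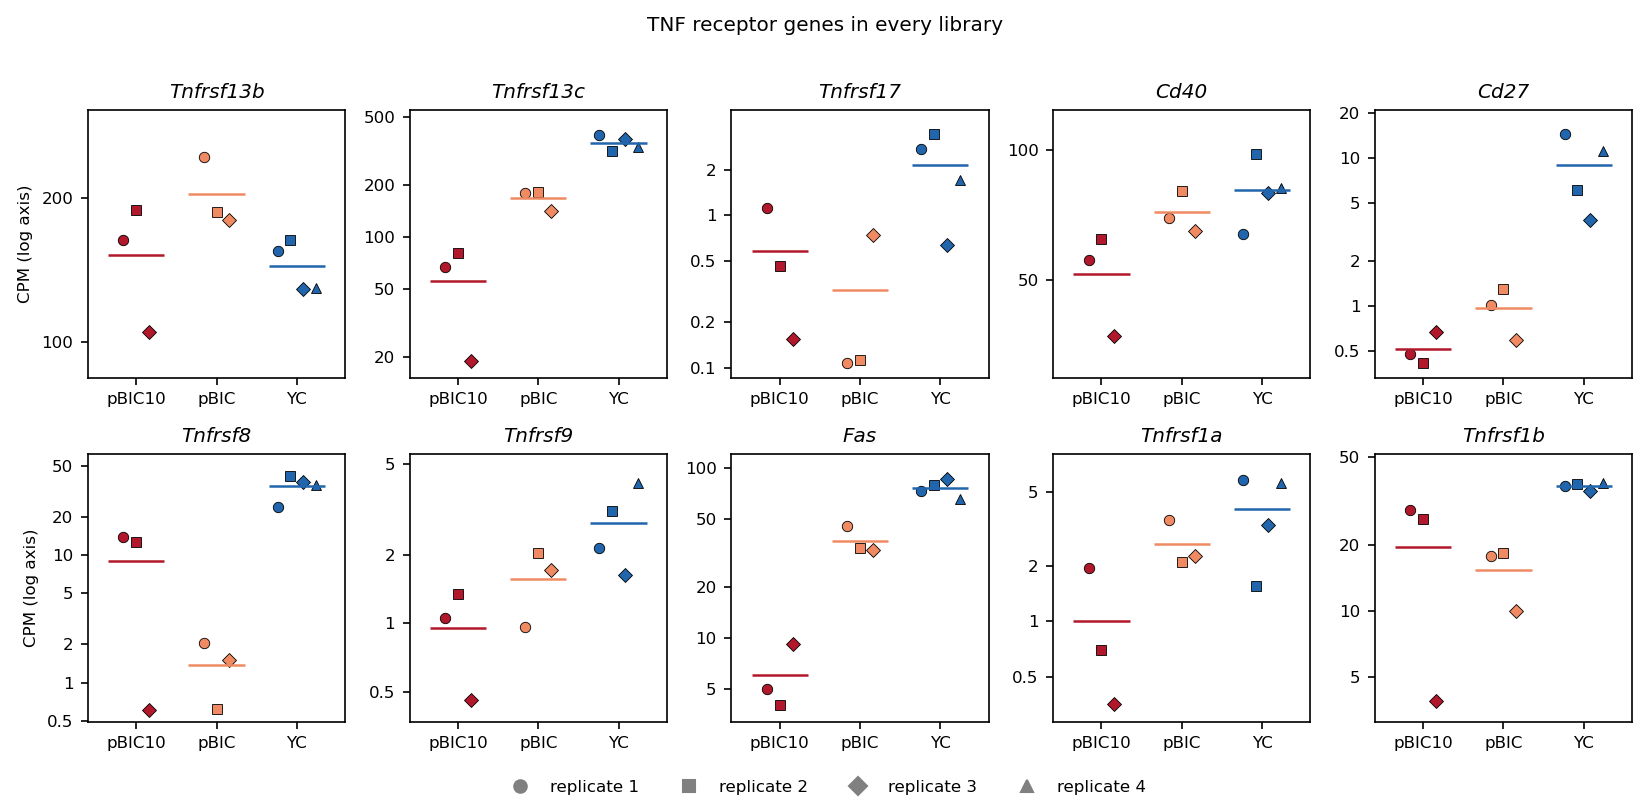
Level of each of the 10 TNF receptor genes in every library, in CPM on log axes, with pBIC10 left, pBIC in the middle and YC right. Points are libraries, shapes are replicate numbers and lines are group means. Fas shows 3 separate levels, and pBIC10 replicate 3 is the lowest pBIC10 library for 8 of the 10 genes.

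The 3 genes called between the lymphomas are shown first by their promoters, since they moved in different directions. Each window holds the 250 bases before and 50 bases after a RefSeq gene start on GRCm38.p6, an earlier build than the GRCm39 of the counts. Of the 10 receptors, 9 matched this table. Capitals mark matches, on either strand, to an NF-kB motif (GGGNNTTTCC), a STAT-type GAS motif (TTCNNNGAA) or an E-box (CACGTG). The motifs were chosen with results of these data known. The windows are Fas at chr19:34290409-34290708 on the plus strand, Tnfrsf13c at chr15:82224331-82224630 on the minus strand and Tnfrsf8 at chr4:145315115-145315414 on the minus strand, each printed 5′ to 3′ in the direction of its gene.
Fas: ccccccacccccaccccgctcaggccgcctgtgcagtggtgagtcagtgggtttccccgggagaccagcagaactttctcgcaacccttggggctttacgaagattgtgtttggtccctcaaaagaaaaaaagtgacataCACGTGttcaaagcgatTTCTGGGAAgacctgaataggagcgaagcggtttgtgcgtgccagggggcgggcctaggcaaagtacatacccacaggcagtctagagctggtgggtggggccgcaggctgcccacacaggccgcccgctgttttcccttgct
Tnfrsf13c: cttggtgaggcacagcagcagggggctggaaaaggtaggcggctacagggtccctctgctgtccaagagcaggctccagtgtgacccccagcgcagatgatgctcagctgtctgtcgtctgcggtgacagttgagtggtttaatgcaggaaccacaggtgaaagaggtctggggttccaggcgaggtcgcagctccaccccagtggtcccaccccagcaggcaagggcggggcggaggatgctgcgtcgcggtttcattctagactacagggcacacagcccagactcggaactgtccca
Tnfrsf8: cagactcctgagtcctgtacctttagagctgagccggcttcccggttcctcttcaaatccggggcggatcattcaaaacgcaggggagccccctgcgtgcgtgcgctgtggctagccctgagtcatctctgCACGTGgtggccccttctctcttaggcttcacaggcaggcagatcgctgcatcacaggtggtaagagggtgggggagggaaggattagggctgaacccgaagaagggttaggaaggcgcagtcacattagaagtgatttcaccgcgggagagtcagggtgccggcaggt
The Fas window held a GAS match TTCTGGGAA 93 bases before the start and an E-box 110 bases before it. The Tnfrsf8 window held an E-box 119 bases before the start, and the Tnfrsf13c window held none of the 3 motifs. Among the other receptors, 1 of the 2 Tnfrsf9 windows held the NF-kB match GGGGATTTCC 43 bases before the start and a GAS match 136 bases before it, and Tnfrsf1a and Tnfrsf1b held a GAS match 244 and 181 bases before the start. Of 32851 windows of this length, 1.63% held the NF-kB motif, 8.3% the GAS motif and 7.15% the E-box. No matches overlapped, and a match is a description of letters, not a binding site.

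Among the receptors for BAFF and APRIL, Tnfrsf13c was lowest in pBIC10, intermediate in pBIC and highest in YC. Tnfrsf13c encodes the BAFF receptor, which mature B cells need to survive. Its level was 67.1, 80.2 and 18.9 CPM in the pBIC10 libraries, against 179.5, 182 and 142 CPM in the pBIC libraries and 390.4, 315, 372 and 332 CPM in the YC libraries. Every pBIC10 library lay below every pBIC library, and every pBIC library below every YC library, with pBIC10 replicate 3 the lowest of all. The log2 fold change was -1.60 ± 0.39 in pBIC10 against pBIC (SE, adjusted p = 0.00930), -1.07 ± 0.36 in pBIC against YC (adjusted p = 0.0269) and -2.67 ± 0.39 in pBIC10 against YC (adjusted p = 1.82e-04). Without pBIC10 replicate 3 the first value was -1.17 and still called. The pBIC against YC value was not called without pBIC replicate 1 (adjusted p = 0.0576), 2 (0.0769) or 3 (0.0968) or YC replicate 3 (0.0505), at log2 fold changes of -1.13, -1.07, -0.96 and -1.05. With no count filter neither the value in pBIC10 against pBIC (-1.60, adjusted p = 0.0585) nor that in pBIC against YC (-1.02, 0.124) was called.

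Tnfrsf13b, which encodes TACI, a receptor that binds both BAFF and APRIL, was not called in any comparison. It had 163, 189 and 105 CPM in pBIC10, against 245, 187 and 179.9 CPM in pBIC and 155, 163, 129 and 129.6 CPM in YC. The pBIC libraries all lay above the YC libraries, while the pBIC10 libraries overlapped both other groups. The log2 fold change was -0.42 ± 0.22 in pBIC10 against pBIC (adjusted p = 0.161), 0.50 ± 0.20 in pBIC against YC (adjusted p = 0.0512) and 0.08 ± 0.20 in pBIC10 against YC (adjusted p = 0.769). The value in pBIC against YC was called without pBIC10 replicate 2 (adjusted p = 0.0468) or 3 (0.0229) and without pBIC replicate 2 (0.0367) or 3 (0.0453). Scaling by library totals (adjusted p = 0.0496) or upper quartiles (0.0459), no count filter (0.0169) and those 2 groups fitted alone (0.0340) also gave a call. By RefSeq's gene spans on GRCm38.p6, Tnfrsf13b overlaps the end of Usp22, and the strand setting of the counts is not given in the sources used here. Usp22 averaged 86.8 ± 4.93 CPM in pBIC10, 104 ± 14.6 CPM in pBIC and 57.3 ± 1.94 CPM in YC, with log2 fold changes of -0.26, 0.86 and 0.60, and its part in the Tnfrsf13b counts was not tested.

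Tnfrsf17 encodes BCMA, the APRIL receptor that keeps long-lived plasma cells alive, and it was scarce in all groups. It had 1.12, 0.469 and 0.154 CPM in pBIC10, against 0.107, 0.113 and 0.750 CPM in pBIC and 2.74, 3.44, 0.637 and 1.71 CPM in YC, which came to 30, 18 and 112 counts in all. Each group overlapped each other group, with YC replicate 3 the lowest of the controls. Tnfrsf17 was lower in pBIC against YC, at -2.68 ± 0.83 on the log2 scale (adjusted p = 0.0156), but not called without pBIC replicate 1 (-2.27, adjusted p = 0.0590) or 2 (-2.23, 0.0655), and it was -4.17 without pBIC replicate 3 (adjusted p = 0.00415). The log2 fold change was 0.81 ± 0.89 in pBIC10 against pBIC (adjusted p = 0.529), and it turned to -0.070 without pBIC10 replicate 1. It was -1.87 ± 0.79 in pBIC10 against YC (adjusted p = 0.0613), which was called without pBIC10 replicate 1 (-2.75, adjusted p = 0.0317), pBIC replicate 3 (-1.86, 0.0337) or YC replicate 3 (-2.18, 0.0331) and with no count filter (-1.82, 0.0311). The same value was called by DESeq2 (-1.92, adjusted p = 0.0402), with sex as a covariate (-1.77, 0.0412) and with those 2 groups fitted alone (-1.89, 0.0385). Plasma cell genes, a list of 8 that holds Prdm1, Xbp1 and Jchain, had 0 called higher and 4 lower in pBIC10 against pBIC, 1 and 6 in pBIC against YC, and 0 and 8 in pBIC10 against YC, and their part in the Tnfrsf17 values was not tested. Over all tested genes, 30.7%, 54.1% and 51.7% were called in the same comparisons.

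The balance of Tnfrsf13b over Tnfrsf13c within a library, a measure chosen after the values were seen, separated all 3 groups. Per length, the ratio was 1.95, 1.88 and 4.44 in pBIC10, against 1.09, 0.825 and 1.02 in pBIC and 0.319, 0.416, 0.278 and 0.312 in YC. Per length, Tnfrsf13b counts thus exceeded those of Tnfrsf13c in every pBIC10 library and were fewer in every YC library. The pBIC libraries lay near equal levels. These counts carry the limits given above for the overlap with Usp22 and for exon length. Tnfrsf13c alone also separated all 3 groups, whereas Tnfrsf13b was not called in any comparison. The ratio was 2.61-fold higher in pBIC10 than in pBIC, 2.97-fold higher in pBIC than in YC and 7.75-fold higher in pBIC10 than in YC. As the measure was chosen after the values were seen, these ratios carry no test. Without pBIC10 replicate 3 the log2 difference was 0.98 in place of 1.38 against pBIC and 2.55 in place of 2.95 against YC.

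**Figure D2:**
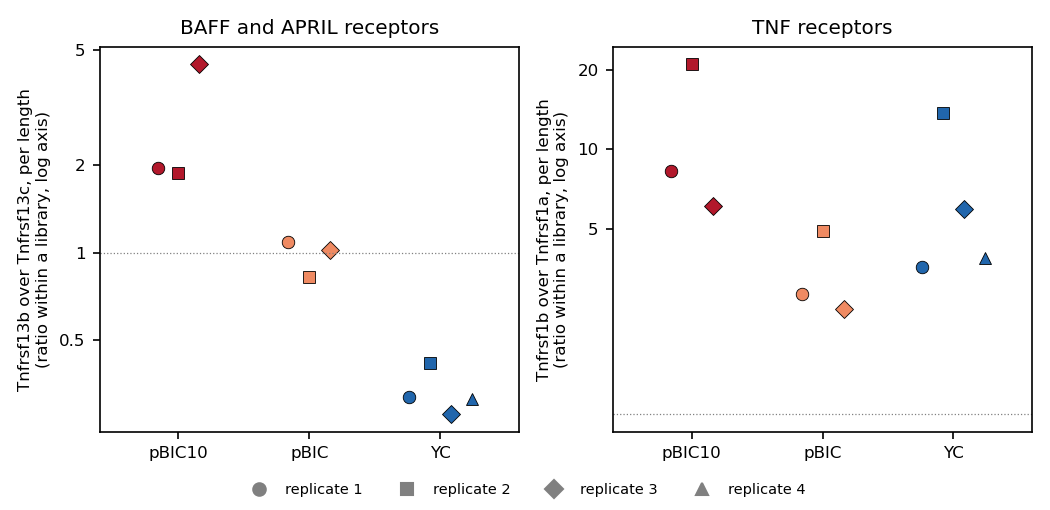
Ratio of 2 receptors within a library, per kilobase of exon, on log axes; the left panel gives Tnfrsf13b over Tnfrsf13c and the right panel Tnfrsf1b over Tnfrsf1a. Points are libraries with pBIC10 left, pBIC in the middle and YC right, shapes are replicate numbers, and dotted lines mark a ratio of 1. In the left panel the groups do not overlap, with pBIC10 between 1.88 and 4.44 and YC between 0.278 and 0.416.

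Among the receptors for help from T cells, Cd40 kept the narrowest range and Cd27 and Tnfrsf8 the widest. CD40 is bound by CD40 ligand on helper T cells and is needed for germinal centres. Cd40 had 55.7, 62.1 and 37.1 CPM in pBIC10, against 69.7, 80.3 and 65.1 CPM in pBIC and 64.0, 98.1, 79.4 and 81.9 CPM in YC. The pBIC10 libraries lay below all others, and pBIC and YC overlapped. Cd40 was lower in pBIC10 against YC, at -0.65 ± 0.20 on the log2 scale (adjusted p = 0.0164), while the values against pBIC (-0.47 ± 0.21, adjusted p = 0.109) and in pBIC against YC (-0.17 ± 0.20, adjusted p = 0.483) were not called. Without pBIC10 replicate 3, the only male of its group, the value against YC was no longer called (-0.45, adjusted p = 0.0861), nor was it among females alone (-0.45, adjusted p = 0.124).

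Cd27, the receptor for CD70 and a marker of memory B cells in humans, was nearly absent from both lymphomas. It had 0.472, 0.410 and 0.666 CPM in pBIC10, against 1.02, 1.30 and 0.589 CPM in pBIC and 14.6, 6.06, 3.82 and 11.2 CPM in YC. All lymphoma libraries lay below all YC libraries, and the lymphoma groups overlapped. Cd27 was lower by 3.19 ± 0.51 on the log2 scale in pBIC against YC (adjusted p = 2.16e-04) and by 4.08 ± 0.55 in pBIC10 against YC (adjusted p = 5.76e-05), and both calls held under all 22 alternatives. Between the lymphomas the log2 fold change was -0.89 ± 0.56 (adjusted p = 0.251), from 28 counts in pBIC10 and 53 in pBIC. T cells also use Cd27, and the 18 T cell markers were lower in the lymphoma libraries, as given above: 16 were called lower in pBIC10 against YC and 17 in pBIC against YC. Over all tested genes, 26.9% and 27.7% were called lower in these comparisons. The part of the T cell markers in the Cd27 values was not tested. The lncRNA E130112N10Rik, whose RefSeq span covers Cd27, averaged 1.37, 1.15 and 1.54 CPM in pBIC10, pBIC and YC.

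Tnfrsf8, which encodes CD30, an activation receptor of lymphocytes, was the 1 receptor called higher in pBIC10 against pBIC. It had 13.9, 12.6 and 0.615 CPM in pBIC10, against 2.04, 0.622 and 1.499 CPM in pBIC and 23.7, 41.5, 37.6 and 35.7 CPM in YC. pBIC10 replicates 1 and 2 lay above every pBIC library, replicate 3 was level with the lowest of them, and all lymphoma libraries lay below YC. The log2 fold change was 2.69 ± 0.80 in pBIC10 against pBIC (adjusted p = 0.0251), -4.63 ± 0.83 in pBIC against YC (adjusted p = 7.10e-04) and -1.94 ± 0.70 in pBIC10 against YC (adjusted p = 0.0363). The value in pBIC against YC was called under all 22 alternatives. The value in pBIC10 against pBIC was 3.25 without pBIC10 replicate 3, and it was not called when pBIC10 replicate 1 (2.24, adjusted p = 0.125) or 2 (2.38, 0.118), pBIC replicate 2 (2.30, 0.134) or 3 (2.75, 0.104) or YC replicate 3 (2.69, 0.0513) was left out. Nor was it called by limma-voom (1.84, adjusted p = 0.246), with no count filter (2.68, 0.135) or with those 2 groups fitted alone (2.66, 0.0728). The value in pBIC10 against YC was -1.38 without pBIC10 replicate 3 and called, and it was not called when pBIC10 replicate 1 or 2, any pBIC library or YC replicate 2, 3 or 4 was left out (-2.39 to -1.86, adjusted p = 0.05003 to 0.0872), with no count filter (-1.89, 0.159) or with those 2 groups fitted alone (-1.96, 0.0714).

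Tnfrsf9 encodes 4-1BB, a costimulatory receptor best known from activated T cells. It had 1.06, 1.35 and 0.461 CPM in pBIC10, against 0.965, 2.03 and 1.71 CPM in pBIC and 2.15, 3.11, 1.63 and 4.14 CPM in YC. The pBIC10 libraries lay below all YC libraries, and pBIC overlapped both. Tnfrsf9 was lower in pBIC10 against YC (-1.53 ± 0.50, adjusted p = 0.0200), a call that failed when pBIC10 replicate 3 (-1.18, adjusted p = 0.0834) or YC replicate 4 (-1.27, 0.0626) was left out and among females alone (-1.36, 0.0579). The values of -0.72 ± 0.52 in pBIC10 against pBIC (adjusted p = 0.321) and -0.81 ± 0.47 in pBIC against YC (adjusted p = 0.166) were not called.

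Fas was lower in pBIC10 than in pBIC, and lower in pBIC than in YC. Fas encodes the death receptor CD95, which is high on germinal centre B cells and removes self-reactive B cells. It had 5.01, 3.98 and 9.18 CPM in pBIC10, against 45.4, 33.7 and 32.9 CPM in pBIC and 73.3, 79.4, 86.1 and 65.5 CPM in YC. The 3 groups did not overlap, and the highest pBIC10 library, replicate 3, lay below the lowest pBIC library, replicate 3. Fas was 6.13-fold lower in pBIC10 than in pBIC (log2 fold change -2.62 ± 0.28, adjusted p = 2.52e-05), 2.04-fold lower in pBIC than in YC (-1.03 ± 0.25, adjusted p = 0.00379) and 12.5-fold lower in pBIC10 than in YC (-3.64 ± 0.29, adjusted p = 1.07e-06). All 3 calls held under all 22 alternatives, and among females alone the values that involve pBIC10 were -3.05 and -4.00.

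Fas is a known target of p53, and all groups but YC carry floxed p53. Of 11 tested p53 target genes, 3 were higher and 3 lower in pBIC10 against pBIC, 2 and 4 in pBIC against YC, and 3 and 2 in pBIC10 against YC. The shares called were 54.5%, 54.5% and 45.5%, beside 30.7%, 54.1% and 51.7% of all tested genes. Trp53inp1 and Cdkn1a, which slow growth or favour death of stressed cells, were higher in pBIC10 against pBIC (log2 fold changes of 2.99 ± 0.35 and 2.96 ± 0.63, adjusted p = 7.13e-05 and 0.00365), as was Perp (3.10 ± 0.85, adjusted p = 0.0146), while Sesn2 (-1.67 ± 0.31, adjusted p = 0.00124), Ccng1 (-0.72 ± 0.20, 0.0140) and Aen (-0.50 ± 0.17, 0.0452) were lower. The part of p53 in the Fas values was not tested. The count of lower genes between the lymphomas was 1 in place of 3 without pBIC10 replicate 2.

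Of the receptors for TNF itself, Tnfrsf1a was lower in pBIC10 against YC, and no other value was called. Tnfrsf1a encodes TNFR1, which has a death domain and is found on most cell types, and Tnfrsf1b encodes TNFR2, which has none and is found mainly on blood cells. Tnfrsf1a had 1.95, 0.703 and 0.359 CPM in pBIC10, against 3.54, 2.09 and 2.25 CPM in pBIC and 5.78, 1.56, 3.32 and 5.56 CPM in YC. The pBIC10 libraries lay below all pBIC libraries, and YC replicate 2 lay within the pBIC10 range. Tnfrsf1a was lower in pBIC10 against YC (-2.02 ± 0.59, adjusted p = 0.0119), a call that failed when pBIC10 replicate 2 was left out (-1.81, adjusted p = 0.0530) and among females alone (-1.68, 0.0576); without pBIC10 replicate 1 it was -2.92 (adjusted p = 0.00323). The value in pBIC10 against pBIC (-1.39 ± 0.61, adjusted p = 0.102) was called without pBIC10 replicate 1 (-2.29, adjusted p = 0.0243), and that in pBIC against YC was -0.63 ± 0.55 (adjusted p = 0.351).

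Tnfrsf1b had 28.6, 26.0 and 3.90 CPM in pBIC10, against 17.8, 18.3 and 9.96 CPM in pBIC and 36.8, 37.7, 35.02 and 38.2 CPM in YC. pBIC10 replicates 1 and 2 lay above the pBIC libraries and replicate 3 below them, and all lymphoma libraries lay below all YC libraries. No comparison was called: the log2 fold change was 0.34 ± 0.52 in pBIC10 against pBIC (adjusted p = 0.658), -1.27 ± 0.50 in pBIC against YC (adjusted p = 0.0503) and -0.92 ± 0.49 in pBIC10 against YC (adjusted p = 0.139). Without pBIC10 replicate 3 the first was 0.85 and called (adjusted p = 0.0273), and without pBIC10 replicate 1 it was -0.030. The value in pBIC against YC was called under 11 of the 22 alternatives, among them DESeq2 (-1.32, adjusted p = 0.0111), limma-voom (-1.32, 0.0416) and without pBIC10 replicate 3 (-1.27, 5.06e-04). That in pBIC10 against YC was called by limma-voom (-1.42, adjusted p = 0.0337) and with sex as a covariate (-1.14, 0.0455). The ratio of Tnfrsf1b over Tnfrsf1a per length, also chosen after values were seen, was 8.30, 20.9 and 6.13 in pBIC10, against 2.84, 4.93 and 2.50 in pBIC and 3.59, 13.7, 5.95 and 3.88 in YC. The ratio was higher in all 3 pBIC10 libraries than in all pBIC libraries, by 1.64 on the log2 scale, and overlapped in the comparisons with YC; it carries no test either.

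**Figure D3:**
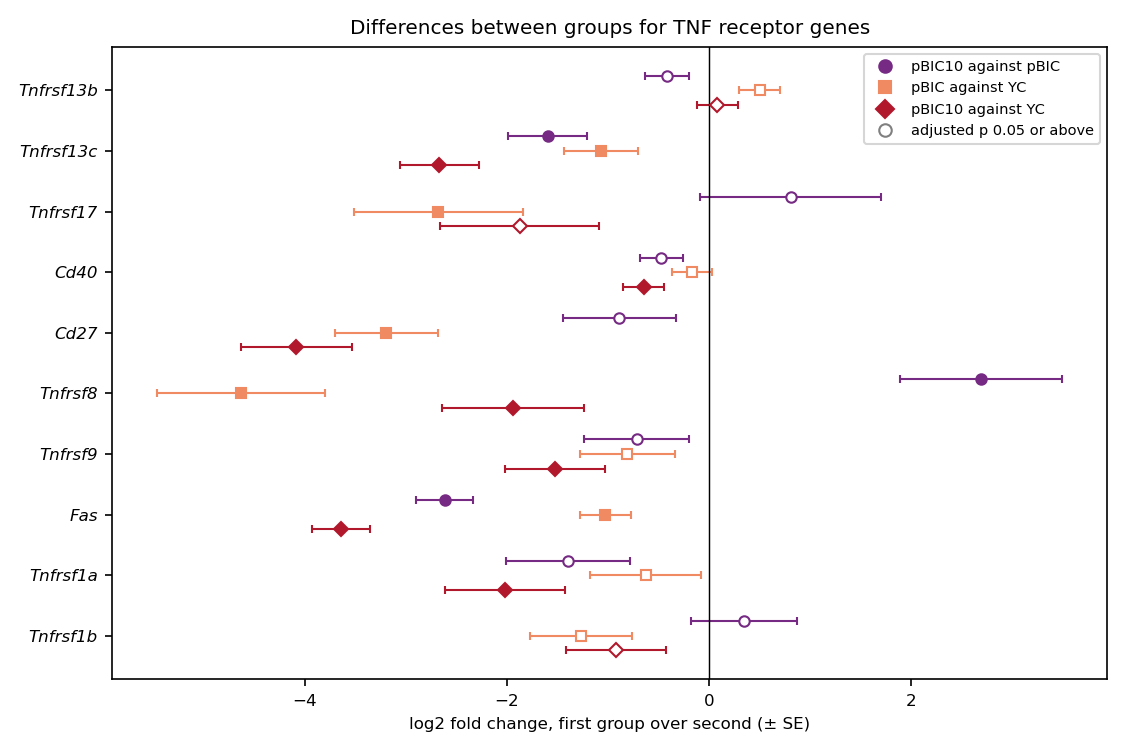
Log2 fold changes of the 10 TNF receptor genes in the 3 comparisons, first group over second, with bars of ± 1 SE; filled symbols have an adjusted p under 0.05 and open symbols do not. Fas and Tnfrsf13c lie left of 0 in all 3 comparisons, and Tnfrsf8 lies at 2.69 in pBIC10 against pBIC and at -4.63 in pBIC against YC.

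Among the 10 receptors, pBIC10 replicate 3, from the only male of its group, stood apart most often. It was the lowest pBIC10 library for 8 of the 10 (all but Fas and Cd27), beside 39.1% of all tested genes, and the highest for those 2. Together the 10 receptors summed to 176 CPM in the lowest pBIC10 library and 376 CPM in the highest, against 436 to 565 CPM in pBIC and 706 to 769 CPM in YC. Sex is not separable from that single library in pBIC10, and all pBIC libraries are from females. The 9 B cell markers also summed lowest in pBIC10 replicate 3, to 2843 CPM against 4244 and 4744 CPM in replicates 1 and 2. Their part in the receptor values was not tested. In pBIC, replicate 3, from a female, was lowest for 6 of the 10 receptors, beside 33% of all tested genes. YC replicate 3, from the male of its group, was lowest for 5, beside 27.1%, with a receptor sum of 748 CPM.

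**Figure D4:**
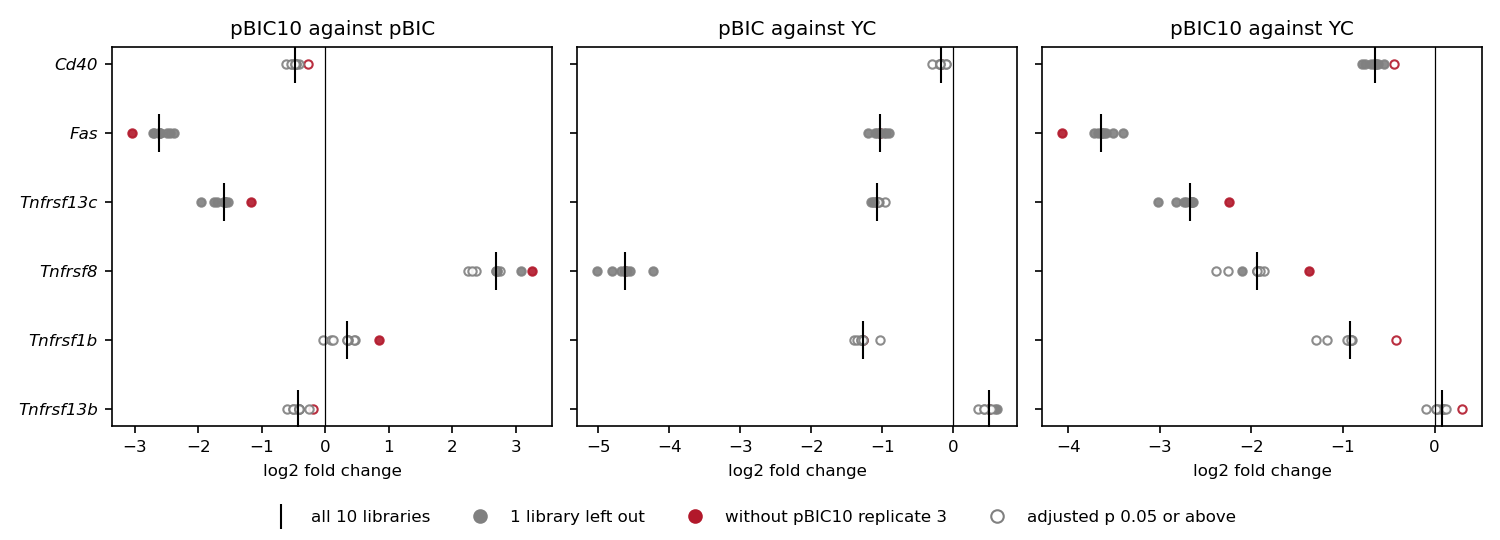
Log2 fold changes of 6 TNF receptor genes with all 10 libraries (vertical bars) and with each library left out in turn (circles); red circles leave out pBIC10 replicate 3, and open circles have an adjusted p of 0.05 or above. Fas stays between -3.04 and -2.38 in pBIC10 against pBIC, whereas Tnfrsf1b runs from -0.030 to 0.85.

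Genes whose levels followed a receptor most closely over the 10 libraries were found among 10020 genes with a mean of at least 5 CPM, by Pearson's r of log2 CPM. Fas was followed by Cdk5rap2 (r = 0.995), Unc13d (0.992) and Pcgf5 (0.988), and Unc13d averaged 2.04 CPM in pBIC10, 44.0 CPM in pBIC and 122 CPM in YC. Tnfrsf13c was followed by Zdhhc2 (r = 0.982), H2-DMa (0.979) and Blnk (0.978), of which Blnk is an adaptor of the B cell receptor and H2-DMa loads MHC class II. Tnfrsf8 was followed by Camkk1 (r = 0.995), Lrrc32 (0.992) and Irf7 (0.982), and Cd27 by Ms4a4b (0.983), Zyx (0.980) and Hspa1a (0.979). Tnfrsf13b was followed less closely, by Tlr4 (r = 0.955). The points share their groups and libraries, so these values describe likeness and carry no test.

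Most ligands of these receptors were lower in pBIC10 against either other group. BAFF was higher in pBIC against YC, and so was Cd70, though near the threshold (adjusted p = 0.0429) and with overlapping libraries. Of 8 tested ligand genes, 0 were higher and 5 lower in pBIC10 against pBIC, 2 higher and 4 lower in pBIC against YC, and 0 higher and 7 lower in pBIC10 against YC, with median log2 fold changes of -2.44, -1.34 and -3.51 beside the all-gene medians above. In shares, 62.5%, 75% and 87.5% of the ligands were called, beside 30.7%, 54.1% and 51.7% of all tested genes. Tnfsf13b, which encodes BAFF, the ligand of Tnfrsf13c and Tnfrsf13b, had 0.590, 0.527 and 1.08 CPM in pBIC10, against 10.2, 4.35 and 13.4 CPM in pBIC and 0.445, 0.246, 0.283 and 0.927 CPM in YC. All pBIC libraries lay above all others, with a log2 fold change of -3.65 ± 0.56 in pBIC10 against pBIC (adjusted p = 3.63e-04) and 4.26 ± 0.53 in pBIC against YC (adjusted p = 3.49e-05), and pBIC10 and YC overlapped (0.61 ± 0.57, adjusted p = 0.386). BAFF is made by myeloid cells too: 12 myeloid markers summed to 27.9 to 38.1 CPM in pBIC10, 128 to 173 CPM in pBIC and 156 to 228 CPM in YC, and their part in the BAFF values was not tested. Tnfsf13, which encodes APRIL, had 1, 2 and 8 counts in pBIC10, pBIC and YC and was not tested.

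Cd70, the ligand of CD27, had 0.236, 0.0586 and 0.359 CPM in pBIC10, against 1.39, 5.60 and 2.14 CPM in pBIC and 0.445, 2.13, 0.566 and 0.784 CPM in YC. It was lower in pBIC10 against pBIC (-3.73 ± 0.79, adjusted p = 0.00330) and against YC (-2.10 ± 0.78, adjusted p = 0.0377), and higher in pBIC against YC (1.64 ± 0.63, adjusted p = 0.0429) with overlapping libraries. Tnfsf9, the ligand of 4-1BB, averaged 1.56 ± 0.516 CPM in pBIC10, against 12.5 ± 2.23 CPM in pBIC and 12.8 ± 1.98 CPM in YC, and was lower in pBIC10 against pBIC (-3.001 ± 0.31, adjusted p = 1.94e-05). Lta, which encodes lymphotoxin alpha, a ligand of both TNF receptors, averaged 5.21 ± 1.80 CPM in pBIC10, 22.8 ± 14.8 CPM in pBIC and 82.8 ± 14.8 CPM in YC, and was lower in all 3 comparisons (adjusted p = 0.00348, 0.00235 and 3.18e-05). Tnf, named after its values were seen, was likewise lower in pBIC10 against pBIC (-2.15 ± 0.48, adjusted p = 0.00601). Cd40lg, Fasl and Tnfsf8, ligands known from T cells, had 1, 2 and 5 counts over the pBIC10 libraries and 3, 16 and 11 over the pBIC libraries, against 192, 105 and 201 over the YC libraries. The count of ligands called higher in pBIC against YC was 1 in place of 2 without pBIC10 replicate 1, pBIC replicate 2 or YC replicate 1, 3 or 4.

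Of 18 other receptors of the family, 14 were tested, with 2 higher and 0 lower in pBIC10 against pBIC, 2 higher and 6 lower in pBIC against YC, and 1 higher and 6 lower in pBIC10 against YC. Among those tested, 14.3%, 57.1% and 50% were called, beside 30.7%, 54.1% and 51.7% of all tested genes. Tnfrsf12a, the receptor for TWEAK, averaged 2.03 ± 0.826 CPM in pBIC10, 0.218 ± 0.0541 CPM in pBIC and 2.77 ± 0.639 CPM in YC, with a log2 fold change of 3.18 ± 0.50 in pBIC10 against pBIC (adjusted p = 4.33e-04). Tnfrsf26 had 29 counts over the pBIC10 libraries, 2 over the pBIC libraries and 521 over the YC libraries; it has near relatives in Tnfrsf22 and Tnfrsf23, which makes its counts uncertain. Relt was higher in both lymphomas, with 31.1 ± 3.25 CPM in pBIC10 and 31.0 ± 5.05 CPM in pBIC against 14.1 ± 6.12 CPM in YC (adjusted p = 0.00468 and 0.00457). Ngfr had 6 counts over the pBIC10 libraries, 0 over the pBIC libraries and 299 over the YC libraries, which is at least 102-fold lower in pBIC than in YC by 3 counts over the group. Tnfrsf11b had 0 counts in every library, and Eda2r had 0 in both lymphoma groups and only 2 over the YC libraries. Edar had 0 in pBIC and only 2 each over the pBIC10 and the YC libraries. Tnfrsf19 had 0 in pBIC, 5 over the pBIC10 libraries and 17 over the YC libraries. None of these genes was tested. The count higher in pBIC against YC was 1 in place of 2 without pBIC replicate 1 or YC replicate 1, 2 or 4.

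Downstream of the receptors, adaptors and NF-kB genes moved in both directions between the lymphomas. Of 19 receptor-proximal genes, 4 were higher and 7 lower in pBIC10 against pBIC, 2 and 9 in pBIC against YC, and 2 and 10 in pBIC10 against YC. These calls made up 57.9%, 57.9% and 63.2% of the list, beside 30.7%, 54.1% and 51.7% of all tested genes. Traf3, which restrains the alternative NF-kB pathway under the BAFF receptor and CD40, averaged 285 ± 14.8 CPM in pBIC10, 98.1 ± 36.3 CPM in pBIC and 91.9 ± 3.28 CPM in YC, and was higher in pBIC10 against pBIC (1.54 ± 0.23, adjusted p = 3.42e-04). Traf4 (1.57 ± 0.20), Casp8, the caspase that Fas activates (1.13 ± 0.20), and Birc3, an inhibitor of apoptosis (0.52 ± 0.18), were also higher there. Traf1, itself switched on by NF-kB, averaged 18.3 ± 6.34 CPM in pBIC10, 68.5 ± 26.4 CPM in pBIC and 161 ± 25.9 CPM in YC, the same order as Tnfrsf13c and Fas, and was lower in pBIC10 against pBIC (-1.91 ± 0.32, adjusted p = 8.27e-04). Tank (-1.16 ± 0.20), Traf5 (-0.81 ± 0.25) and Ripk1 (-0.79 ± 0.17) were lower as well. The count of 7 lower was 3 without pBIC10 replicate 1 or without replicate 2, and the count of 2 higher in pBIC against YC was 1 without pBIC replicate 1 or YC replicate 1.

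Of 13 NF-kB pathway genes, 1 was higher and 6 lower in pBIC10 against pBIC, 2 and 4 in pBIC against YC, and 2 and 6 in pBIC10 against YC. That came to 53.8%, 46.2% and 61.5% called, beside 30.7%, 54.1% and 51.7% of all tested genes. Chuk (-1.03 ± 0.17), Bcl3 (-0.90 ± 0.20), Nfkb2 (-0.73 ± 0.16) and Nfkbie (-1.05 ± 0.30) were lower in pBIC10 against pBIC and Ikbkg was higher (0.59 ± 0.19). Chuk and Nfkb2 belong to the alternative pathway, and Nfkb2 averaged 84.8 ± 1.98 CPM in pBIC10 and 269 ± 45.7 CPM in YC. Without pBIC10 replicate 1 the count in pBIC10 against pBIC was 0 higher and 3 lower, Ikbkg was not called without pBIC10 replicate 2 or pBIC replicate 2, and 2 genes were higher without pBIC replicate 1.

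Of 13 tested genes that CD40 stimulation is known to induce, 2 were higher and 7 lower in pBIC10 against pBIC, 2 and 9 in pBIC against YC, and 1 and 10 in pBIC10 against YC. Calls thus covered 69.2%, 84.6% and 84.6% of them, beside 30.7%, 54.1% and 51.7% of all tested genes. Cd83, an activation marker, averaged 21.1 ± 5.46 CPM in pBIC10, 211 ± 65.8 CPM in pBIC and 319 ± 42.6 CPM in YC (-3.32 ± 0.26 in pBIC10 against pBIC, adjusted p = 2.66e-06). Icam1, an adhesion molecule, was lower there by 1.69 ± 0.18 on the log2 scale (adjusted p = 2.00e-05), and so were Bcl2a1b and Bcl2a1d, survival genes whose near-identical sequences make the split of their counts uncertain (-3.59 ± 0.42 and -4.87 ± 0.51). Fcer2a, which encodes CD23, and Cd80, a costimulator of T cells, were higher there (2.90 ± 0.28 and 1.30 ± 0.38, adjusted p = 1.16e-05 and 0.0194). The change of Cd40 itself between the lymphomas, -0.47, was not called. The count of 2 higher was 1 without pBIC10 replicate 1 or pBIC replicate 2 or 3, and that in pBIC against YC was 1 without pBIC replicate 1 or YC replicate 1 or 3.

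The marker lists of other cell types moved as follows beside the receptors. Over all tested genes, 15.6% were called higher and 15.1% lower in pBIC10 against pBIC. These shares were 26.4% and 27.7% in pBIC against YC, and 24.8% and 26.9% in pBIC10 against YC. B cell markers (9) had 3 higher and 0 lower in pBIC10 against pBIC, 0 and 7 in pBIC against YC, and 0 and 6 in pBIC10 against YC. Germinal centre genes (8) had 3 and 1, 0 and 8, and 0 and 8 in the same order of comparisons. T cell markers (18) had 3 and 12, 0 and 17, and 0 and 16, NK cell markers (8) 0 and 4, 0 and 6, and 0 and 8, and myeloid markers (12) 0 and 3, 1 and 8, and 0 and 11. Dendritic cell markers (5) had 0 and 0, 0 and 2, and 0 and 3, and erythroid markers (6) 0 and 0, 0 and 0, and 2 and 0. Single libraries moved some of these counts. Erythroid markers had 4 higher in pBIC10 against pBIC and 1 lower in pBIC against YC without pBIC replicate 3, and the 2 higher in pBIC10 against YC were 0 without pBIC10 replicate 1 or YC replicate 2 or 3, 1 without pBIC10 replicate 2 or 3, pBIC replicate 2 or YC replicate 1, and 4 without pBIC replicate 1 or 3 or YC replicate 4. In pBIC10 against pBIC, myeloid markers had 5 lower without pBIC replicate 1 or 3, dendritic cell markers 1 lower without pBIC10 replicate 3, and NK cell markers 1 higher without pBIC replicate 1. Dendritic cell markers had 1 lower in pBIC against YC without YC replicate 1, 2 or 4. Against YC, Fas, Tnfrsf13c and Cd27 were lower, as were most genes of the B cell, germinal centre, T cell, NK cell and myeloid lists. Tnfrsf13b was not lower (log2 fold changes of 0.50 in pBIC and 0.08 in pBIC10), and Cd40 in pBIC was not called (-0.17). With all libraries, no erythroid marker was called lower. The part of these lists in the receptor values was not tested.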

How the data were processed

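Per the submitters' processing notes, reads were checked with FastQC and counted with featureCounts on GRCm39. The authors deposited raw counts per gene, 1 column for each of 10 libraries. Aligner, annotation and strand setting: not given in the sources used here.

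Counts were used as deposited. Genes passing filterByExpr of edgeR 4.0.16 (R 4.3.3) were scaled by TMM and fitted in 1 robust quasi-likelihood model with 1 coefficient per group. Tests were two-sided, adjusted by Benjamini-Hochberg over all 17718 tested genes of a comparison and called under 0.05. Each SE was taken as the absolute log2 fold change over the square root of F. CPM are TMM-scaled and given as mean ± SD (n = 3, 3 and 4). Every adjusted p comes from edgeR unless DESeq2 or limma-voom is named with it. The script was tested on simulated data. Exon lengths and promoters were matched by symbol to references on GRCm38. DESeq2 1.42.0 and limma 3.58.1 (voom) served as alternatives, beside other scalings, filters, sex, 2 groups only and leaving out each library. Further alternatives left out immunoglobulin and T cell receptor genes or added a cut-off of 1 on the absolute log2 fold change. Figures used matplotlib 3.10.9 (Python 3.11.15).

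The members, motifs and gene lists were chosen with earlier results of these data known. All members were named, and from each list up to 4 higher and 4 lower genes, by smallest adjusted p in pBIC10 against pBIC, further genes called in the comparisons with YC, and genes at 0 in a group. Not every such gene is printed. With 3 or 4 libraries in a group, the depth given limits precision for Cd27, Tnfrsf17, Tnfrsf1a and Tnfrsf9. All columns were matched to samples.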

Additional observations from a re-analysis of the deposited data

How the results depend on the processing

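Each of the 30 values of a receptor in a comparison was checked under 22 alternatives (21 for Tnfrsf17 in pBIC10 against pBIC, which had too few counts when those 2 groups were fitted alone). Of these, 14 kept their direction and call under every alternative, among them 7 of the 15 called, which are the 3 of Fas, both of Cd27 against YC, Tnfrsf13c in pBIC10 against YC and Tnfrsf8 in pBIC against YC. The other 8 called values lost the call under at least 1 alternative, and 6 values gained one. Among the alternatives, a cut-off of 1 on the absolute log2 fold change reused the reported fit and could only remove calls. That cut-off removed the call of Cd40 in pBIC10 against YC (-0.65). The number of receptors called in pBIC10 against pBIC was 3, with 1 under no count filter and 2 to 4 with single libraries left out. In pBIC against YC it was 5, with 3 to 7 with single libraries left out, the lowest without pBIC replicate 1. In pBIC10 against YC it was 7, with 4 among females alone, 9 with sex as a covariate and 5 to 7 with single libraries left out. The direction turned for Tnfrsf1b in pBIC10 against pBIC under limma-voom (-0.097) and without pBIC10 replicate 1 (-0.030; 0.85 without replicate 3), for Tnfrsf17 there without pBIC10 replicate 1 (-0.070; 2.31 without pBIC replicate 3), and for Tnfrsf13b in pBIC10 against YC without pBIC10 replicate 2 (-0.095; 0.30 without replicate 3), and the cause was not tested. Without the count filter the median of all genes moved to -0.33 for pBIC and -0.26 for pBIC10, each against YC. Over all alternatives, 5 to 11 receptor-proximal genes (11 as reported) and 2 to 7 NF-kB genes (7 as reported) were called in pBIC10 against pBIC. Depth limits Cd27, Tnfrsf17, Tnfrsf1a and Tnfrsf9, which had 7, 2, 7 and 9 counts in their lowest lymphoma libraries. The groups came from mice of different genotypes, and the labels give no pairing between them, so no paired analysis was made. Replicate numbers used here follow the order of the samples within each group, since the labels number no replicates.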
